A study of Homo sapiens with 6 samples.

Results

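A set of 80 genes had lower mRNA levels in KGN cells given one small interfering RNA (siRNA) against OGT, siOGT1, and not in cells given a second siRNA against the same mRNA, siOGT2. They were chosen from the expression values themselves, as group means of log2(FPKM + 1). FPKM is a fragment count scaled to the length of the gene model and to the size of the library, and the added 1 shrinks the change of low genes. A member had a mean of at least 3 FPKM in the 2 libraries of the control siRNA (siNC), a difference of at most -0.32 between siOGT1 and siNC, and a difference of at least -0.10 between siOGT2 and siNC. Of 20036 genes in the table, 8176 reached the siNC level and 80 became members. A further 9 genes met all 3 thresholds and were left out by name: TNFRSF21, CAP1, YWHAQ, IFNAR1, CPT1A, SUZ12 and those whose symbols start with POLR or SLC35. Every difference below between an OGT siRNA and siNC in a member is therefore a description of what chose it, and is given without a test.

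KGN, a widely used human cell line, comes from a tumour of ovarian granulosa cells, and its genotype is labelled WT. The 3 groups were KGN cells transfected with siOGT1, with siOGT2, or with siNC, and each had 2 libraries. The cells of all 6 libraries received Lipofectamine 3000 and an siRNA, those against OGT from GenePharma, and were harvested 48 hours later for total RNA. No untransfected cells are among the groups, and the labels do not say whether the 2 libraries of a group came from separate cultures, so p-values measure only the spread between libraries, which may be technical. In bulk RNA, fewer cells that express a gene and less of its RNA per cell cannot be told apart.

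The product of OGT, O-GlcNAc transferase, modifies proteins of the nucleus and cytosol with single sugars, N-acetylglucosamine, on serine and threonine side chains. An siRNA is a short RNA duplex whose guide strand is loaded into an Argonaute protein and directs cleavage of mRNA that pairs with it along its length. The guide can also act as a microRNA does: its seed, a stretch near its 5′ end, pairs with short matches, mostly in 3′ untranslated regions (3′ UTRs), and the mRNAs that hold them are destabilised. Such matches depend on the siRNA's own sequence and not on the intended target. Neither siRNA's sequence is given in the sources used here.

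Before the members' levels, the sequence feature most of them shared is shown. Every word of 7 letters was looked up, on the transcript strand only, in a single 3′ UTR per gene (GENCODE release 29, GRCh38), and the words were ordered by the share of members that held them minus the share of the other genes. Of 16384 words, GCTCTTA came first. Among the members searched, 57 of 78 held it in the 3′ UTR, or 73.1% (95% Wilson interval 62.3% to 81.7%), against 623 of 7983 other genes, or 7.80%. Because the word was picked on these members, its share among them is a description. The other genes include the 9 left out by name. The first copy is printed for the 12 members with the largest siOGT1 difference among those that hold the word, and then for the paralogs UBQLN2 and UBQLN1, for EGFR and for OGT itself, so that what surrounds the word can be compared. Each window is 30 bases of the transcript read 5′ to 3′ and the capitals mark the word.
OSTM1 at chr6:108044675-108044704, minus strand: tgatttgacaagtcaaGCTCTTAagaaata
GTPBP4 at chr10:1017585-1017614, plus strand: cccgtgcttaaaatacGCTCTTAaattatt
TIMM10B at chr11:6482570-6482599, plus strand: acgggtaatatgtcatGCTCTTAgttcatc
ELK3 at chr12:96267408-96267437, plus strand: tttttatatccttttaGCTCTTAagtgttg
ENTREP3 at chr1:155247250-155247279, minus strand: gtagaatgtttgtaaaGCTCTTAacagtat
CWF19L2 at chr11:107326449-107326478, minus strand: aggattttatagaaaaGCTCTTAattttct
ATN1 at chr12:6942242-6942271, plus strand: taaatatctatatgacGCTCTTAaaaaaac
ITPRID2 at chr2:181930038-181930067, plus strand: tgtaaaaaatataattGCTCTTAattcttg
DUSP3 at chr17:43768512-43768541, minus strand: ctgcccattgcaggtgGCTCTTAcagctct
PIGS at chr17:28553413-28553442, minus strand: gtctggcgtgtagtagGCTCTTAataaaca
SOS2 at chr14:50118227-50118256, minus strand: actttttacaaataatGCTCTTAcaaaaat
POFUT1 at chr20:32238026-32238055, plus strand: tgtagcctggataaatGCTCTTAattataa
UBQLN2 at chrX:56565780-56565809, plus strand: cttatttttgataatgGCTCTTAaatcttt
UBQLN1 at chr9:83661728-83661757, minus strand: tttatttttgataacgGCTCTTAaacttta
EGFR at chr7:55205699-55205728, plus strand: agccatgcccgcattaGCTCTTAgacccac
OGT at chrX:71563358-71563387, plus strand: agatagcagtaacacaGCTCTTAatatgcc

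All windows but that of OGT lie in 3′ UTRs. Outside the word the windows differ, except those of UBQLN1 and UBQLN2, paralogs whose windows are identical at 25 of 30 bases. In OSTM1 the word starts 97 bases into the 3′ UTR, in GTPBP4 374 bases, in ELK3 244 bases and in POFUT1 3381 bases. The OGT transcript searched, of 5461 bases, held the word 1 time, in its coding sequence. Of all 8061 genes searched, 467 held it in the coding sequence (5.79%). Whether that stretch of OGT is where siOGT1 binds was not tested. None of 2545 mature human miRNAs from RefSeq had a seed (bases 2 to 8) complementary to GCTCTTA.

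OGT mRNA was lowered by both siRNAs. Library totals, recovered from the FPKM values to the nearest 1000 reads, were 18408000 and 21416000 for siOGT1, 18123000 and 16757000 for siOGT2, and 20153000 and 20113000 for siNC. OGT had 13.8 and 12.9 FPKM in siOGT1 cells, 14.3 and 14.7 FPKM in siOGT2 cells, against 22.4 and 23.4 FPKM in siNC cells. It fell by 0.74 on the log2 scale with siOGT1 (SE 0.0435, adjusted p = 9.3e-06) and by 0.63 with siOGT2 (SE 0.0435, adjusted p = 8.88e-06), by limma with Benjamini-Hochberg adjustment over 10547 genes. The siOGT1 and siOGT2 levels of OGT differed by -0.11 and did not pass (SE 0.0435, adjusted p = 0.123). Of 16 granulosa markers, 9 were above 1 FPKM in at least 1 library, FOXL2, NR5A1, AMH and FST among them, while the FSH receptor gene FSHR was listed at 0 in all 6 and the aromatase gene CYP19A1 at no more than 0.0111 FPKM. None of the leukocyte, endothelial, theca or oocyte markers was above 1 FPKM. The epithelial markers summed to 29.8, 33.1 and 27.6 FPKM and the fibroblast markers to 423, 423 and 393 FPKM in siOGT1, siOGT2 and siNC cells. Their part in the members' levels was not tested.

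The members were lowered by siOGT1 to a modest degree. Their siOGT1 levels were 45.7% to 79.5% of the siNC mean, with a median of 71.7%, while their siOGT2 levels had a median of 103%. On the log2 scale the siOGT1 minus siNC difference ran from -0.96 to -0.32, with a median of -0.44, beside a median of 0.03 over all 8176 genes. The siOGT2 minus siNC difference ran from -0.10 to 0.33 with a median of 0.04, as over all genes (0.04). The 2 OGT siRNAs share their siNC libraries.

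**Figure D1:**
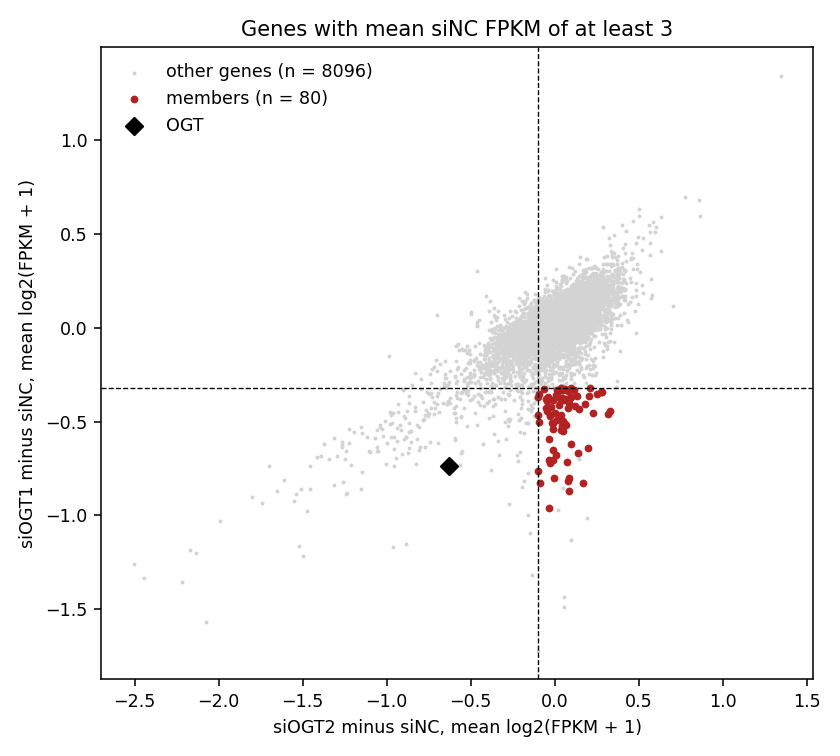
Each point is a gene with at least 3 FPKM in siNC cells, with siOGT2 minus siNC on the x axis and siOGT1 minus siNC on the y axis (mean log2(FPKM + 1), 2 libraries a group). The 80 members (red) fill the lower right corner, below -0.32 and right of -0.10 (dashed lines); the grey points there are the 9 genes left out by name, and OGT (diamond) is lowered on both axes.

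In all 80 members both siOGT1 libraries lay below both siNC libraries, as they did in 21.7% of the 8176 genes, and in all 80 they lay below both siOGT2 libraries, against 30.9% of genes. The rule used these values, so nothing is read from the counts. Between siOGT2 and siNC the members were mixed. Both siOGT2 libraries were above both siNC libraries in 35 members (45.9% of all genes), below them in 8 (27.0%), and the groups overlapped in 37. The siOGT2 threshold of the rule bears on these counts too. For the counts of other genes given below, limma called 8.10% of the 10547 genes tested lower with siOGT1 than with siNC, 13.4% lower and 22.1% higher with siOGT2 than with siNC, and 8.24% lower with siOGT1 than with siOGT2. After rescaling each library by a trimmed mean of its log ratios, the genes called with siOGT1 against siNC split into 1009 lower and 543 higher, against 854 and 1003 (9.51%) as deposited. For siOGT2 against siNC the split was 1840 lower and 1382 higher, against 1411 and 2329.

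**Figure D2:**
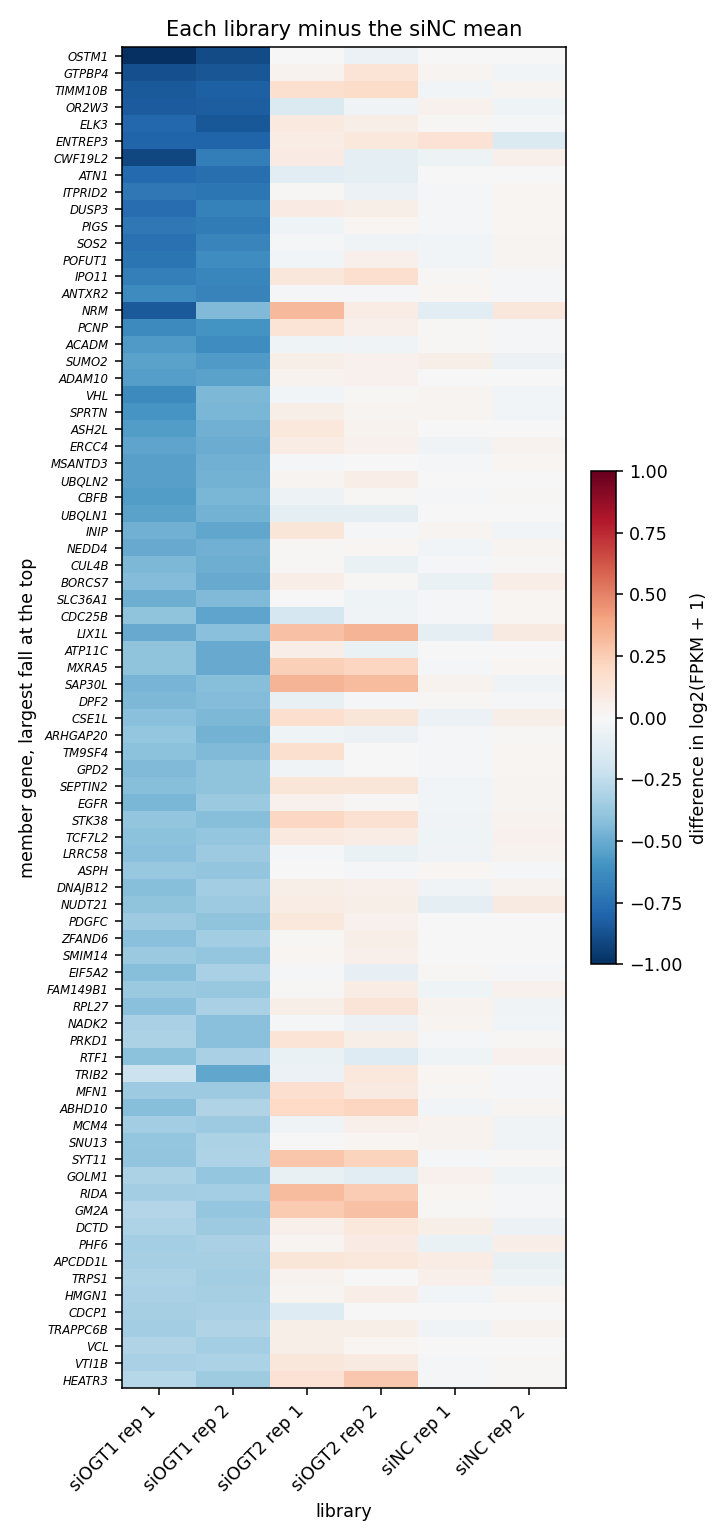
Rows are 79 of the 80 members ordered by their siOGT1 minus siNC difference and columns the 6 libraries. Colour is the difference in log2(FPKM + 1) from the siNC mean of that gene. Both siOGT1 columns are blue throughout, with medians over all 80 of -0.43 and -0.44, while the siOGT2 columns have medians of 0.05 and 0.04.

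The members came from 20 chromosomes, with at most 7 on any of them, and all 80 were annotated as protein coding. They had a median of 14.4 FPKM in siNC cells, beside 11.1 FPKM for all 8176 genes, and a median gene model of 5774 bases, beside 5483. Reads per library ran from 53 to 12924 for a member, with a median of 1351. Exons of 15 members overlapped an exon of another protein-coding gene. No source used here says whether the counting used strand, so reads of such pairs cannot be told apart.

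Members of lysosome, membrane traffic and lipid handling numbered 12, with a median siOGT1 minus siNC difference of -0.44. OSTM1, a subunit of the lysosomal chloride transporter complex with CLC-7, had 9.12 and 10.1 FPKM in the siOGT1 libraries, 19.6 and 18.7 in the siOGT2 libraries and 19.5 and 19.6 in the siNC libraries. The siOGT1 libraries stood clear below the other 4, 0.96 lower than siNC, which is the largest difference among the members, and siOGT2 and siNC overlapped. ENTREP3, a low gene, had 1.702 and 1.71 FPKM with siOGT1, 3.95 and 4.06 FPKM with siOGT2, and 4.22 and 3.26 FPKM with siNC, 0.80 lower with siOGT1. PIGS, a subunit of the complex that attaches GPI anchors to proteins, had 2.73 and 2.77 FPKM in siOGT1 cells, 4.94 and 5.205 FPKM in siOGT2 cells, against 5.03 and 5.201 FPKM in siNC cells, 0.70 lower. In both genes siOGT2 and siNC overlapped. SLC36A1, a lysosomal amino acid transporter and the only solute carrier among the members, had 7.78 and 8.04 FPKM in the siOGT1 libraries, 11.2 and 10.9 in the siOGT2 libraries and 11.1 and 11.5 in the siNC libraries, 0.46 lower, and 3 copies of the word in its 3′ UTR. The SNARE gene VTI1B, which acts in endosomal fusion, lay just inside the threshold at -0.32, with 5.09 and 5.13 FPKM with siOGT1, 7.24 and 7.12 FPKM with siOGT2, and 6.57 and 6.71 FPKM with siNC. Its siOGT2 libraries were both above siNC. In GM2A, the activator of ganglioside breakdown, siOGT2 was higher than siNC by 0.28, with 5.55 and 5.14 FPKM in siOGT1 cells, 8.65 and 8.84 FPKM in siOGT2 cells, against 7.09 and 6.996 FPKM in siNC cells. SYT11, a synaptotagmin with 2 copies of the word, had the same order of groups, with 20.9 and 22.2 FPKM in the siOGT1 libraries, 33.9 and 32.6 in the siOGT2 libraries and 27.6 and 27.99 in the siNC libraries.

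Growth factor, Notch, WNT and kinase signalling held the most members, 14, with a median of -0.42. The receptor gene EGFR had 12.7 and 13.6 FPKM with siOGT1, 18.4 and 18.01 FPKM with siOGT2, and 17.5 and 18.2 FPKM with siNC, 0.41 lower with siOGT1. SOS2, a guanine nucleotide exchange factor that activates RAS below such receptors, had 7.39 and 7.87 FPKM in siOGT1 cells, 12.8 and 12.7 FPKM in siOGT2 cells, against 12.8 and 13.3 FPKM in siNC cells, 0.70 lower. The siOGT1 libraries of both lay below the other 4, among which siOGT2 and siNC overlapped. PDGFC, a platelet-derived growth factor gene, was among the 5 members highest in siNC cells, with 49.8 and 48.6 FPKM in the siOGT1 libraries, 69.4 and 66.4 in the siOGT2 libraries and 64.1 and 64.5 in the siNC libraries. No copy of the word was found in its 3′ UTR. Of further signalling genes, ELK3, an ETS transcription factor downstream of RAS signalling, had 7.896 and 7.54 FPKM with siOGT1, 15.5 and 14.9 FPKM with siOGT2, and 14.5 and 14.2 FPKM with siNC, 0.82 lower. DUSP3, a dual-specificity phosphatase that acts on MAP kinases, had 28.7 and 30.4 FPKM in siOGT1 cells, 52.2 and 51.4 FPKM in siOGT2 cells, against 48.6 and 49.8 FPKM in siNC cells, 0.72 lower, and 2 copies of the word. In both genes the siOGT2 libraries lay slightly above siNC.

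Notch and WNT genes were represented by 3 named members. POFUT1, which adds O-fucose to the EGF repeats of Notch receptors, had 6.17 and 6.702 FPKM in the siOGT1 libraries, 10.6 and 11.3 in the siOGT2 libraries and 10.7 and 11.1 in the siNC libraries, 0.68 lower with siOGT1. ADAM10, the protease that sheds Notch and other membrane proteins, had 9.69 and 9.85 FPKM with siOGT1, 15.05 and 15.1 FPKM with siOGT2, and 14.6 and 14.7 FPKM with siNC, 0.54 lower. TCF7L2, a transcription factor of the WNT pathway, had 5.88 and 5.996 FPKM in siOGT1 cells, 8.82 and 8.66 FPKM in siOGT2 cells, against 7.91 and 8.42 FPKM in siNC cells, 0.40 lower. In all 3 the siOGT1 libraries were the lowest pair.

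Ubiquitin, SUMO and protein quality control held 9 members with a median of -0.50. PCNP, a nuclear protein with PEST sequences, was the most abundant member, with 75.2 and 77.3 FPKM in the siOGT1 libraries, 129 and 122 in the siOGT2 libraries and 118 and 117 in the siNC libraries, 0.62 lower with siOGT1. The ubiquitin-like modifier gene SUMO2 had 11.7 and 11.4 FPKM with siOGT1, 18.1 and 17.9 FPKM with siOGT2, and 18.2 and 16.6 FPKM with siNC, 0.55 lower. VHL, the substrate receptor of an E3 ligase that targets hypoxia-inducible factors, had 3.87 and 4.54 FPKM in siOGT1 cells, 6.41 and 6.61 FPKM in siOGT2 cells, against 6.698 and 6.403 FPKM in siNC cells, 0.54 lower, with no copy of the word. The siOGT1 values of VHL were further apart for their size than those of SUMO2 and PCNP, and were still below the other 4 libraries. Ubiquilins shuttle ubiquitinated proteins to the proteasome, and both UBQLN1 and UBQLN2 were members. UBQLN1 had 56.4 and 58.8 FPKM in the siOGT1 libraries, 76.8 and 76.7 in the siOGT2 libraries and 82.1 and 82.1 in the siNC libraries, 0.50 lower, and UBQLN2 had 10.9 and 11.5 FPKM with siOGT1, 16.7 and 17.2 FPKM with siOGT2, and 16.3 and 16.4 FPKM with siNC, 0.51 lower. For UBQLN1 both siOGT2 libraries were also below siNC (-0.10). NEDD4, an E3 ligase, had 12.2 and 12.3 FPKM in siOGT1 cells, 17.8 and 17.9 FPKM in siOGT2 cells, against 17.2 and 17.998 FPKM in siNC cells, 0.49 lower, and CUL4B, a cullin scaffold of E3 ligases, had 13.5 and 13.1 FPKM in the siOGT1 libraries, 19.03 and 17.9 in the siOGT2 libraries and 18.6 and 19.002 in the siNC libraries, 0.47 lower. The CUL4B 3′ UTR searched, of 120 bases, held no copy, while that of another transcript of the gene did.

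**Figure D3:**
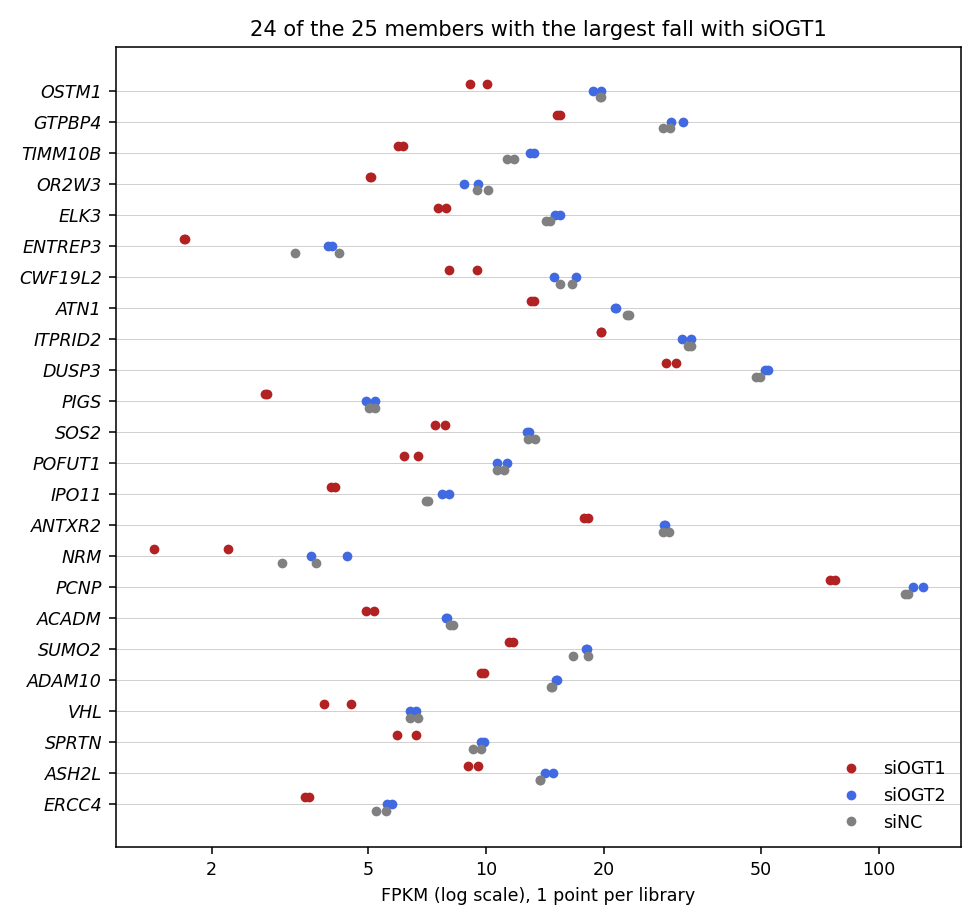
FPKM on a log axis in each of the 6 libraries for 24 of the 25 members with the largest siOGT1 minus siNC difference, from OSTM1 (0.96 lower) to ERCC4 (0.51 lower). The siOGT1 points (red) lie left of all siOGT2 (blue) and siNC (grey) points of the same gene, from 1.43 FPKM in NRM to 77.3 FPKM in PCNP.

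Chromatin and transcription genes numbered 10, with a median of -0.44. ATN1, the transcriptional corepressor atrophin-1, had 12.997 and 13.2 FPKM with siOGT1, 21.3 and 21.4 FPKM with siOGT2, and 22.9 and 23.1 FPKM with siNC, 0.76 lower with siOGT1. It was also among the members closest to the siOGT2 threshold, at -0.10, and its siOGT2 libraries lay between the other groups. ASH2L, a subunit of histone H3 lysine methyltransferase complexes, had 9.004 and 9.51 FPKM in siOGT1 cells, 14.8 and 14.1 FPKM in siOGT2 cells, against 13.7 and 13.7 FPKM in siNC cells, 0.52 lower. Part of the ASH2L exons overlap STAR on the opposite strand, and STAR averaged 2.04, 1.90 and 1.31 FPKM in siOGT1, siOGT2 and siNC cells. SAP30L, a component of the SIN3A corepressor complex, had the highest siOGT2 minus siNC difference of the members, 0.33, with 5.87 and 6.05 FPKM in the siOGT1 libraries, 10.99 and 10.8 in the siOGT2 libraries and 8.72 and 8.23 in the siNC libraries. The groups of SAP30L were all separate, with siNC in the middle. RTF1, of the PAF1 transcription elongation complex, lay at -0.10 for siOGT2, with 11.2 and 11.999 FPKM with siOGT1, 14.5 and 13.9 FPKM with siOGT2, and 14.8 and 15.7 FPKM with siNC.

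RNA processing, ribosome and translation held 7 members with a median of -0.38. GTPBP4, a nucleolar GTPase needed to assemble the large ribosomal subunit, had 15.2 and 15.5 FPKM in siOGT1 cells, 29.6 and 31.8 FPKM in siOGT2 cells, against 29.4 and 28.3 FPKM in siNC cells, 0.87 lower with siOGT1, or 53.1% of siNC, and both siOGT2 libraries were above siNC. CWF19L2 had 8.04 and 9.505 FPKM in the siOGT1 libraries, 16.97 and 14.9 in the siOGT2 libraries and 15.4 and 16.5 in the siNC libraries, 0.80 lower. In CWF19L2 siOGT2 and siNC overlapped. NUDT21, a cleavage factor that steers the choice of polyadenylation site, had 5.29 and 5.45 FPKM with siOGT1, 7.72 and 7.64 FPKM with siOGT2, and 6.79 and 7.86 FPKM with siNC, 0.38 lower, with 2 copies of the word. EIF5A2, a translation factor related to EIF5A, had 6.07 and 6.59 FPKM in siOGT1 cells, 8.37 and 7.99 FPKM in siOGT2 cells, against 8.597 and 8.43 FPKM in siNC cells, 0.38 lower, also with 2 copies. Both had siOGT1 libraries below the other 4. RPL27, a protein of the large ribosomal subunit, had 76.1 and 81.03 FPKM in the siOGT1 libraries, 106 and 112 in the siOGT2 libraries and 104 and 99.7 in the siNC libraries, 0.37 lower, and its 3′ UTR of 26 bases held no copy, while the 3′ UTR of another transcript and the coding sequence did. It was 1 of 77 cytosolic ribosomal protein genes at the siNC level, and of the other 83 tested none was called lower with siOGT1 and 7 were called higher (1 and 0 after rescaling). HEATR3, next to the threshold at -0.32, was higher with siOGT2 than with siNC by 0.21, with 3.28 and 3.08 FPKM with siOGT1, 4.79 and 5.302 FPKM with siOGT2, and 4.18 and 4.27 FPKM with siNC.

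Mitochondria and small-molecule metabolism held 7 members with a median of -0.37. TIMM10B, a small chaperone of protein import into the inner membrane, had 5.98 and 6.12 FPKM in siOGT1 cells, 12.96 and 13.3 FPKM in siOGT2 cells, against 11.3 and 11.7 FPKM in siNC cells, 0.83 lower with siOGT1, and both siOGT2 libraries were above siNC. ACADM, the medium-chain acyl-CoA dehydrogenase of fatty acid oxidation, had 5.18 and 4.93 FPKM in the siOGT1 libraries, 7.8998 and 7.95 in the siOGT2 libraries and 8.22 and 8.07 in the siNC libraries, 0.60 lower, without the word in any sequence searched. MFN1, which fuses outer mitochondrial membranes, had 12.2 and 12.3 FPKM with siOGT1, 18.2 and 17.2 FPKM with siOGT2, and 16.2 and 15.9 FPKM with siNC, 0.36 lower. RIDA, a deaminase that clears reactive imines, was 0.34 lower with siOGT1 and 0.28 higher with siOGT2, with 8.6003 and 8.64 FPKM in siOGT1 cells, 14.2 and 13.5 FPKM in siOGT2 cells, against 11.3 and 11.1 FPKM in siNC cells. The 3 groups of RIDA did not overlap.

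DNA replication, repair and cell cycle held 6 members with a median of -0.48. SPRTN, a protease of DNA-protein crosslinks, had 5.94 and 6.64 FPKM in the siOGT1 libraries, 9.89 and 9.68 in the siOGT2 libraries and 9.704 and 9.25 in the siNC libraries, 0.52 lower with siOGT1. ERCC4, the XPF nuclease subunit of nucleotide excision repair, had 3.45 and 3.53 FPKM with siOGT1, 5.76 and 5.599 FPKM with siOGT2, and 5.24 and 5.57 FPKM with siNC, 0.51 lower, and 3 copies of the word. The siOGT1 libraries of both were the lowest pair. MCM4, a subunit of the replicative helicase, had 3.58 and 3.55 FPKM in siOGT1 cells, 4.705 and 5.06 FPKM in siOGT2 cells, against 4.98 and 4.703 FPKM in siNC cells, 0.36 lower, without a copy. CDC25B, a phosphatase that activates cyclin-dependent kinases at entry to mitosis, had 10.3 and 9.37 FPKM in the siOGT1 libraries, 12.3 and 13.6 in the siOGT2 libraries and 13.7 and 14.2 in the siNC libraries, 0.46 lower, and at -0.10 for siOGT2 it was the member nearest to that threshold.

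The nuclear envelope and transport held 3 members with a median of -0.64. IPO11, an importin, had 4.02 and 4.12 FPKM with siOGT1, 7.73 and 8.04 FPKM with siOGT2, and 7.12 and 7.02 FPKM with siNC, 0.67 lower with siOGT1. NRM, the inner nuclear membrane protein nurim, had 1.43 and 2.198 FPKM in siOGT1 cells, 4.43 and 3.58 FPKM in siOGT2 cells, against 3.02 and 3.696 FPKM in siNC cells, 0.64 lower, and was the member with the lowest siNC mean, 3.36 FPKM. Its siOGT1 values were far apart for their size and did not reach those of the other groups. CSE1L, which returns importin alpha to the cytosol, had 36.8 and 36.1 FPKM in the siOGT1 libraries, 55.7 and 54.1 in the siOGT2 libraries and 47.5 and 51.6 in the siNC libraries, 0.43 lower. All 3 had higher siOGT2 than siNC means, by 0.14 to 0.20.

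Cytoskeleton, adhesion and cell surface held 7 members with a median of -0.42. ITPRID2, which binds inositol trisphosphate receptors and actin, had 19.6 and 19.6 FPKM with siOGT1, 33.2 and 31.6 FPKM with siOGT2, and 32.6 and 33.3 FPKM with siNC, 0.72 lower with siOGT1. ANTXR2, an anthrax toxin receptor that binds matrix proteins, had 18.2 and 17.7 FPKM in siOGT1 cells, 28.6 and 28.5 FPKM in siOGT2 cells, against 29.2 and 28.3 FPKM in siNC cells, 0.65 lower. The siOGT2 and siNC libraries of both overlapped. SEPTIN2, a filament-forming GTPase, had 39.2 and 39.8 FPKM in the siOGT1 libraries, 57.7 and 57.8 in the siOGT2 libraries and 52.1 and 53.97 in the siNC libraries, 0.42 lower, with no copy of the word in its 3′ UTR. VCL, the focal adhesion protein vinculin, lay just inside the threshold at -0.32, with 35.02 and 34.1 FPKM with siOGT1, 45.3 and 44.1 FPKM with siOGT2, and 43.6 and 43.4 FPKM with siNC. A further 5 members had no shared role, among them OR2W3, of the olfactory receptor family, with 5.06 and 5.09 FPKM in siOGT1 cells, 8.76 and 9.54 FPKM in siOGT2 cells, against 10.1 and 9.47 FPKM in siNC cells, 0.83 lower. LIX1L was 0.46 lower with siOGT1 and 0.32 higher with siOGT2, with 5.25 and 5.64 FPKM in the siOGT1 libraries, 9.84 and 10.2 in the siOGT2 libraries and 7.31 and 8.42 in the siNC libraries.

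The members were also looked up in lists of pathway genes. Of 24 lists, 13 held at least 1 member and none held more than 3, and 61 of the 80 members were in no list. The share of all genes that were in no list was not counted. Members made up 0.978% of all genes at the siNC level. The lists given next held the most members, so nothing is read from their higher shares. The ubiquitin list had SUMO2, NEDD4 and CUL4B among 77 such genes (3.90%). Of its other 76 tested genes, 11 were called lower and 4 higher with siOGT1 (13 and 2 after rescaling by a trimmed mean). With siOGT2 16 were called lower and 14 higher (24 and 3 after rescaling). Nuclear transport had IPO11 and CSE1L among 47 genes (4.255%). Of its other 46 genes 1 was called lower and 3 higher with siOGT1 (3 and 2 after rescaling). In these lists the members were thus a small minority, and most other genes passed in neither direction. The TGF-beta, BMP, WNT and Notch list had ADAM10 and TCF7L2 among 48 genes (4.17%). Of its other 51 genes 6 were called lower and 2 higher with siOGT1 (7 and 2 after rescaling). The MAPK and PI3K list had SOS2 and EGFR among 74 genes (2.70%). Of its other 76 genes 6 were called lower and 7 higher (7 and 2 after rescaling). The mitochondrial list had ACADM and MFN1 among 68 genes (2.94%), and of its other 71 genes 3 were called lower and 10 higher (3 and 6 after rescaling).

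A gene clearly lowered with siOGT2 could not become a member, and the interferon and G2/M lists held many such genes, so the rule largely fixed how few members they had. Of 62 interferon-stimulated genes tested, which antiviral signalling induces, 59 were called lower with siOGT1 and 62 with siOGT2, with median log2 fold changes of -0.56 and -1.002, and none was a member. Of 35 G2/M and mitosis genes other than CDC25B, 9 were called lower with siOGT1 and 29 with siOGT2, and none higher with either. Of 35 replication genes other than MCM4, 8 were called lower and 1 higher with siOGT1, and 1 lower and 5 higher with siOGT2 (4 and 4 after rescaling). The lists of chromatin modifiers, of lysosome and autophagy genes and of RNA decay and RNA interference genes had no member. They had 92, 54 and 63 genes at the siNC level. With a member share of 0.978% over all genes at that level, nothing is read from this. ASH2L, OSTM1 and other members with related roles were not in these lists. The genes left out by name could not count as members in any list.

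The word was then set beside the size of the change. The 57 members with GCTCTTA in the 3′ UTR had a median siOGT1 minus siNC difference of -0.46 and the 21 without it -0.37. Of the 25 members searched with the largest difference 84.0% held it (interval 65.3% to 93.6%), and of the 25 with the smallest 56.0% (37.1% to 73.3%). In the coding sequence 4.0% and 28.0% of these held it. The word was picked on these members and the order uses values that chose them, so nothing is read from the order. Ordered by size, the first 15 members searched all held the word, and ACADM was the first without. The base that follows the word was also looked at. Of 67 copies in members 59.7% were followed by A, against 33.7% of the copies in other genes. The word was picked on these members, so this too is a description. Whether the word pairs with the siOGT1 guide, and whether it has a part in the members' levels, was not tested. The word followed by A was present in 40 members (51.3%) and in 2.79% of other genes. Of the 21 members without the word, 6 had it in the 3′ UTR of another transcript, 8 had it in the coding sequence, 2 of these in both, and 9 had it in neither. Of all 7381 genes searched without it in the 3′ UTR, 415 had it in the coding sequence. With the 3′ UTRs of all coding transcripts pooled, 80.8% of members held it, against 12.3% of all genes searched. OR2W3 and ANTXR2 were not searched, because the transcripts chosen for them have no annotated 3′ UTR.

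The median 3′ UTR was 2062 bases long in members and 1117 in other genes, and a long sequence holds more words, so the share was also taken within length classes. Among 3′ UTRs of 1000 to 2000 bases, 17 of 18 members held GCTCTTA (94.4%), against 5.48% of other genes. Between 2000 and 4000 bases it was 23 of 30 members (76.7%), against 12.7%. From 4000 bases on it was 10 of 10 members, against 29.5%, and between 500 and 1000 bases 6 of 11 (54.55%), against 3.0%. Below 500 bases, 1 of 9 members held it, against 0.97%. The best word that shared fewer than 5 letters with GCTCTTA was AATTTTT, in 64.1% of members and 40.1% of other genes.

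The share was also taken in genes lowered in other ways, again as a description. Of the genes lowered by siOGT2 and not siOGT1, by the same thresholds with the siRNAs exchanged, 1 of 64 searched held it (1.56%, interval 0.276% to 8.33%). Of those lowered past -0.32 by both siRNAs, 23 of 193 did (11.9%, interval 8.07% to 17.2%). All 9 genes left out by name held it. The median 3′ UTR was 1128 bases in genes lowered by siOGT2 and not siOGT1, 943 in those lowered by both and 2062 in members. Length was not matched in these shares.

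**Figure D4:**
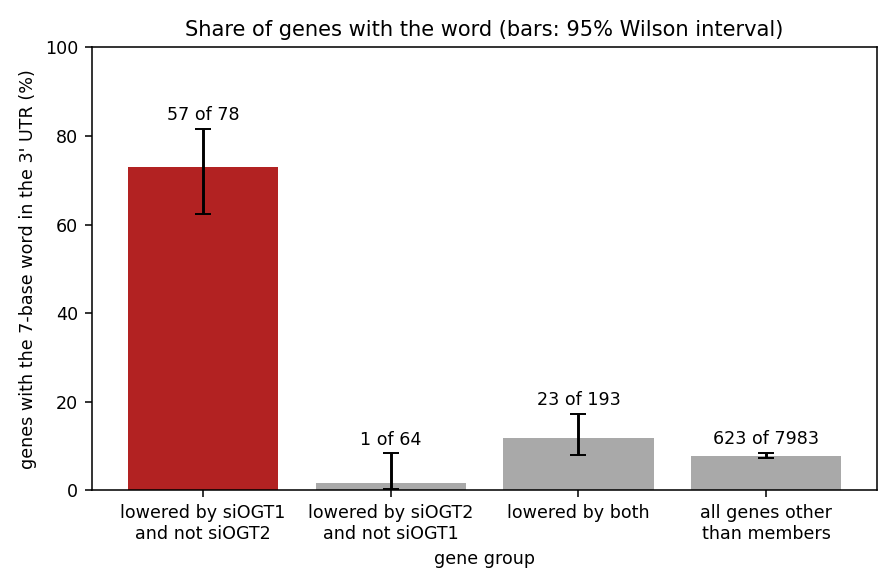
Bars give the percent of genes with the 7-base word in the 3′ UTR, with 95% Wilson intervals as error bars and counts above. The bar of the members stands at 73.1%, and those of the mirrored rule, of genes lowered by both siRNAs and of all other genes at 1.56%, 11.9% and 7.80%. The word was picked for its excess in these members over the other genes, and the intervals do not cover that choice.

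Across all 8061 genes searched, the siOGT1 minus siNC difference was set out by copies of the word in the 3′ UTR. Its median was -0.18 in 73 genes with at least 2 copies, -0.17 in 214 genes with 1 copy followed by A, -0.02 in 393 genes with 1 copy not followed by A, and 0.04 in 7381 genes with none. Without the members the medians were -0.15 (65 genes), -0.10 (179), -0.02 (379) and 0.04 (7360). The 9 genes left out by name met the same thresholds and all held the word. They stay in every value given without the members. The siOGT2 minus siNC medians of the same 4 classes were 0.05, 0.01, 0.03 and 0.04, and without the members, which the rule kept from falling with siOGT2, 0.04, -0.01, 0.03 and 0.04. Genes called lower with siOGT1 by limma made up 54.8%, 51.9%, 23.7% and 7.09% of these classes, and 49.2%, 42.5%, 20.8% and 6.82% without the members. Without the members, genes called lower with siOGT2 made up 26.2%, 24.0%, 16.6% and 15.3%, so these shares too were higher in the classes with the word. Most carriers were not members: of 680 genes with a copy, 57 were (8.38%), and 450 were below 0 with siOGT1 (66.2%). In 415 genes with the word in the coding sequence alone the median was -0.01.

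**Figure D5:**
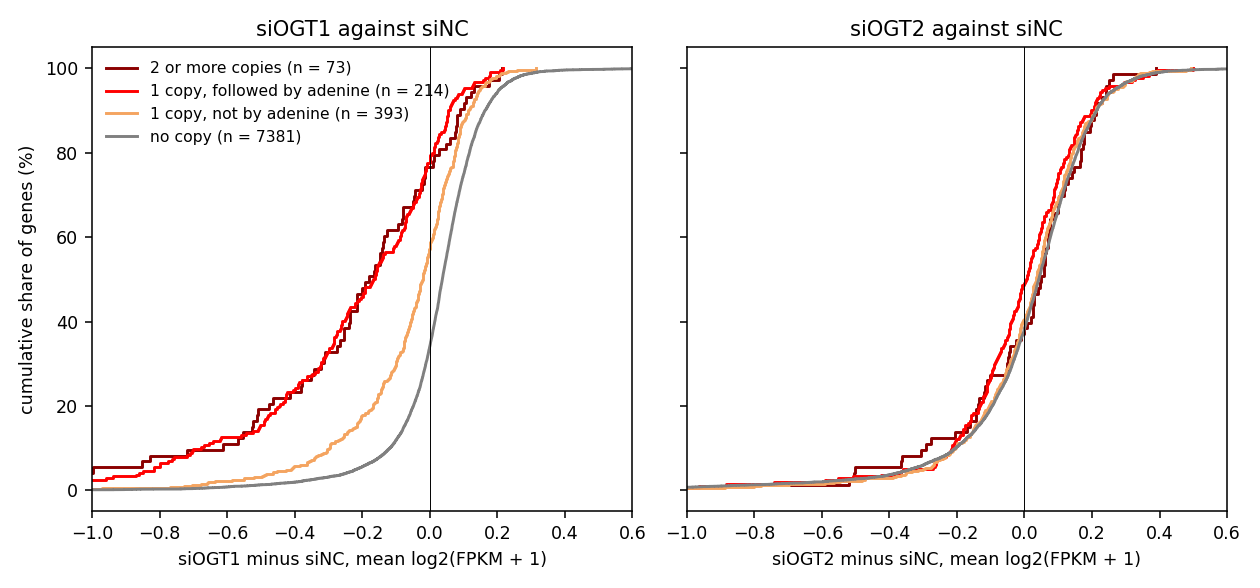
Cumulative percent of genes against their difference from siNC in mean log2(FPKM + 1), for siOGT1 (left) and siOGT2 (right), by copies of the 7-base word in the 3′ UTR. With siOGT1 the curves of 2 or more copies (median -0.18) and of 1 copy followed by A (-0.17) lie left of genes without a copy (0.04), while with siOGT2 the 4 medians lie between 0.01 and 0.05. Members are included. Without them the siOGT1 medians are -0.15, -0.10 and 0.04 in the same 3 classes. The siOGT2 medians are then 0.04, -0.01 and 0.04. The 9 genes left out by name stay in throughout.

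The members next to a threshold differed little from genes just past it. For siOGT1, HEATR3, VTI1B and VCL stood at -0.32, and SFRP1, MGAT5 and BCOR, outside, also rounded to -0.32. For siOGT2, CDC25B, ATN1 and RTF1 stood at -0.10, and outside it TESK1, ZFP91 and MMADHC at -0.11, -0.11 and -0.12, while siOGT1 stood at -0.39, -0.47 and -0.38 in these 3 genes. For the siNC level, NRM, ENTREP3 and TRAPPC6B had means of 3.36, 3.74 and 3.85 FPKM, and RASD2, TNRC6C and WDR76, outside, 2.89, 2.79 and 2.43 FPKM.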

How the data were processed

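Per the labels' protocols, TRIzol was used for extraction of total RNA and NEBNext Ultra II for the 6 libraries. Per the submitters' processing notes, the authors trimmed reads with cutadapt 1.15 and aligned them to GRCh38 with HISAT2. No source used here names the counting program, the annotation or the strand setting. The authors deposited FPKM values for 20036 genes in 6 columns, and 20011 identifiers matched a gene symbol. Whole reads were recovered from the FPKM values (tolerance 0.01 reads) for 100.0% of the 10547 genes with a mean of at least 1 FPKM, and gave the depth: the median tested gene had 765 to 975 reads per library.

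Members were found from group means of log2(FPKM + 1). For the share of genes called, limma 3.58.1 (lmFit, contrasts.fit, eBayes with an intensity trend, R 4.3.3) was fitted to log2(FPKM + 1) of the 10547 genes in all 6 libraries with a mean per group, two-sided, at a Benjamini-Hochberg adjusted p under 0.05. It had 3 residual and 6.31 prior degrees of freedom. The procedure was tested on simulated data.

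For sequences, the transcript of each gene with the longest coding sequence, then the longest 3′ UTR, was taken from GENCODE release 29, and 8061 genes at the siNC level had a 3′ UTR to search. Wilson intervals (95%) cover counting error only. The genes named are OGT, the 25 members with the largest siOGT1 difference, up to 4 members per pathway list, the 3 genes on either side of each threshold, the 5 members highest in siNC cells, the 5 with the highest siOGT2 minus siNC difference, and up to 8 members with at least 2 copies of the word. UBQLN2, the paralog of the member UBQLN1, was added after its values were seen. A member that this rule would name is not reported here by name, and counts over the members include it. The role groups were written after the members were known. The members, the pathway lists, the word and the tests were chosen with earlier results of these data known.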

Additional observations from a re-analysis of the deposited data

How the results depend on the processing

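In all 80 members both siOGT1 libraries lay below both siNC libraries, so the direction of the siOGT1 difference was nearly fixed in advance. It held in all 880 values of single members recomputed under other settings. Of the 80 members, 41 were kept under every one of 11 settings other than the siNC levels. The number of members was 45 with 5 added to FPKM in place of 1 and 52 with a siNC level of 10 FPKM, and leaving out 1 library at a time gave 78 to 89, with 58 members kept throughout. The median siOGT1 minus siNC difference was -0.39 with 5 added, -0.45 at the siNC level of 10 and -0.43 after quantile normalization, and -0.44 to -0.41 without 1 library. GCTCTTA ranked first in each setting that was ranked again. Those settings held mostly the same members on which the word was picked, so this rank was nearly fixed in advance. The share of GCTCTTA was 16.7% in coding sequence, against 5.79% of all genes searched. In 3′ UTRs it was 85.2% in members at -0.5 or below, 74.6% in members without exon overlap (a setting chosen after the data were seen), and 68.7% to 72.7% without 1 library. Genes called by limma numbered 1857 for siOGT1 against siNC, 3740 for siOGT2 against siNC and 1750 for siOGT1 against siOGT2. With no filter on low values, which tests more genes, the first was 1138 and the third 1017. Leaving out 1 library gave 943 to 1738, 2218 to 3744 and 813 to 1532. The first was 943 without siNC replicate 1, 980 without siNC replicate 2 and 1200 without siOGT1 replicate 2. The second was 2321 without siNC replicate 1, 2218 without siNC replicate 2 and 2219 without siOGT2 replicate 2. The third was 1056 without siOGT2 replicate 1 and 813 without siOGT2 replicate 2. A group left with 1 library was assumed to vary like the others. With the replicate number as a block the counts were 1773, 3636 and 1674. Same-numbered libraries did not deviate together (correlations -0.02, -0.03 and 0.05), so no pairing by number was seen in the values. This cannot tell whether they were handled together. The deposited unit is FPKM, and a planned count model (edgeR) was not run. In its place limma-voom on the recovered reads, chosen after the data were seen, called 2540, 4224 and 2280. The causes of these differences were not tested.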
